A study of Mus musculus with 8 samples.

Results

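Viperin, the Mx proteins and 5 further products of interferon-stimulated genes belong to the antiviral defence inside the infected cell, and their messenger RNAs were followed here in blood stem cells of mice lacking the RNA-editing enzyme ADAR1. The genes were Rsad2 (which encodes viperin), Cmpk2, Mx1, Mx2, Isg20, Rtp4, Samd9l and Rnf213. Every probe set that the array annotation assigned to one of these symbols was taken, whatever its values, which gave 13 probe sets for 8 genes, of 45037 probe sets tested and 18193 genes with a probe set of their own. The cells were haematopoietic stem cells with the surface phenotype Lin-Sca+Kit+, sorted from the fetal liver of C57/B6 mice, 1 mouse to an array. The 8 arrays comprised 2 from wild-type (WT) mice, 3 from heterozygous (HT, ADAR1 +/-) mice and 3 from null (KO, ADAR1 -/-) mice. The comparison asks what loss of ADAR1 does to these transcripts, and the WT and HT mice together are called the 5 controls. The labels name neither the allele, nor the exons it removes, nor the age of the embryos.

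ADAR1 edits double-stranded RNA, where it turns adenosines into inosines. Type I interferons bind a receptor that acts through the kinases JAK1 and TYK2 on transcription factors that bind interferon-stimulated response elements in promoters. Viperin is a radical SAM enzyme that makes ddhCTP, a chain-terminating analogue of CTP, and CMPK2 is a mitochondrial nucleoside monophosphate kinase encoded beside it. Mx proteins are dynamin-like GTPases, ISG20 is an exonuclease, RTP4 belongs to the receptor transporter proteins, SAMD9L is a large antiviral protein of the cytoplasm, and RNF213 is a very large ubiquitin ligase with an AAA ATPase core. In the mouse, Mx1 protein is found in the nucleus and Mx2 protein in the cytoplasm. The C57BL/6 strain is known for carrying Mx genes that make no working protein, and RefSeq lists both Mx1 and Mx2 as transcribed pseudogenes, so the Mx values below describe transcripts.

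Rsad2 and Cmpk2 lie next to each other on chromosome 12 on opposite strands, with their transcription starts 12763 bases apart and pointing away from each other. Their upstream sequences are shown because these neighbouring genes both rose in the data below. The 250 bases before each start, from RefSeq on build GRCm38.p6, lie at chr12:26456453-26456702 on the minus strand for Rsad2 and at chr12:26468965-26469214 on the plus strand for Cmpk2. They are written 5′ to 3′ along each gene, and capitals mark a match to the tandem response element motif GAAANNGAAA, searched on both strands.
Rsad2: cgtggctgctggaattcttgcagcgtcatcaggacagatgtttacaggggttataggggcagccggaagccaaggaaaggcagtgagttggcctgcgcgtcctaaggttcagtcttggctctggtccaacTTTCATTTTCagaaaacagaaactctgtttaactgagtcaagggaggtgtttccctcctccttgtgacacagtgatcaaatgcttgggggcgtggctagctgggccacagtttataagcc
Cmpk2: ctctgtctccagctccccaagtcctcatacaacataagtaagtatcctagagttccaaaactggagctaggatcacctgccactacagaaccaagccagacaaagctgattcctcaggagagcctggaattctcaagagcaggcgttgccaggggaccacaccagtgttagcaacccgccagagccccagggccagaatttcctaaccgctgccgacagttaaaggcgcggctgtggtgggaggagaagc
The capitals in the Rsad2 sequence lie 120 to 111 bases before the start and read in the opposite direction to the gene. A shorter motif, AANNGAAA, lies within the tandem one and was counted separately. It matched in 2 places in the Rsad2 sequence, at 120 to 113 bases (overlapping the tandem match) and at 106 to 99 bases before the start. The Cmpk2 sequence held neither motif. Of 32851 promoter windows of this length, 978 (2.98%) held the tandem motif and 6999 (21.3%) the shorter one. RefSeq promoter entries were matched for 5 of the 8 genes. Samd9l had 1 match to the shorter motif at 14 to 7 bases before its start, the first of the entries for Isg20 had 1 at 62 to 55 bases, and neither the other Isg20 entries nor Rnf213 had any. A match is a run of letters and was not shown to be bound.

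The deposited values are linear intensities per probe set, and the level at which a probe set was taken as not above background was that of the brightest among 27 Bacillus control probe sets on the same array. That level lay between 6.20 and 8.15 on the control arrays and between 7.398 and 9.29 on the KO arrays, against array medians of 7.06 to 7.91. The number of arrays limits the precision. The gene symbol Adar had 3 probe sets. The one above background on all 8 arrays, 1434268_at, read 7.66 to 17.6 on the controls and 59.8, 144 and 176.5 on the KO arrays, a log2 difference of 3.23 ± 0.41 (SE; limma, adjusted p = 0.0171). Its remaining probe sets differed by 0.24 ± 0.40 and -0.16 ± 0.20. Where these probes lie relative to the deleted part of the gene is not stated in the labels, so these values do not check the genotype labels. The summed intensity of 11 stem and progenitor markers was 997 to 1550 on the controls and 754 to 1786 on the KO arrays. Of these, 8 were above background on all controls and 6 on all KO arrays. Limma called none against the controls. At an unadjusted p under 0.05, Kit and Myb were lower, as were 6.66% of all probe sets, and none was higher. Kit read 11.7 to 23.5 on the controls and 9.33 to 13.3 on the KO arrays. The sum does not check the identity of the cells. The macrophage, hepatocyte and plasmacytoid dendritic cell lists are given with the member results.

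Transcripts of all 8 genes were higher in KO cells. Each of the 13 probe sets read higher on every KO array than on every control array, while 3.89% of all tested probe sets did so. Against the controls, 12 of the 13 rose and none fell (limma, adjusted p between 5.59e-05 and 0.00344), against a background of 0.329% of all probe sets called higher. Their median log2 difference was 5.19, beside 0.04 for all probe sets tested. On the control arrays these transcripts sat at the edge of detection: 2 probe sets were at or below background on all 5 controls, 9 on some of them, and 2 were above it on all 5. On the KO arrays 12 of 13 were above background on all 3. Since these are bulk samples, a change in the share of expressing cells and a change in RNA per cell cannot be told apart.

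**Figure D1:**
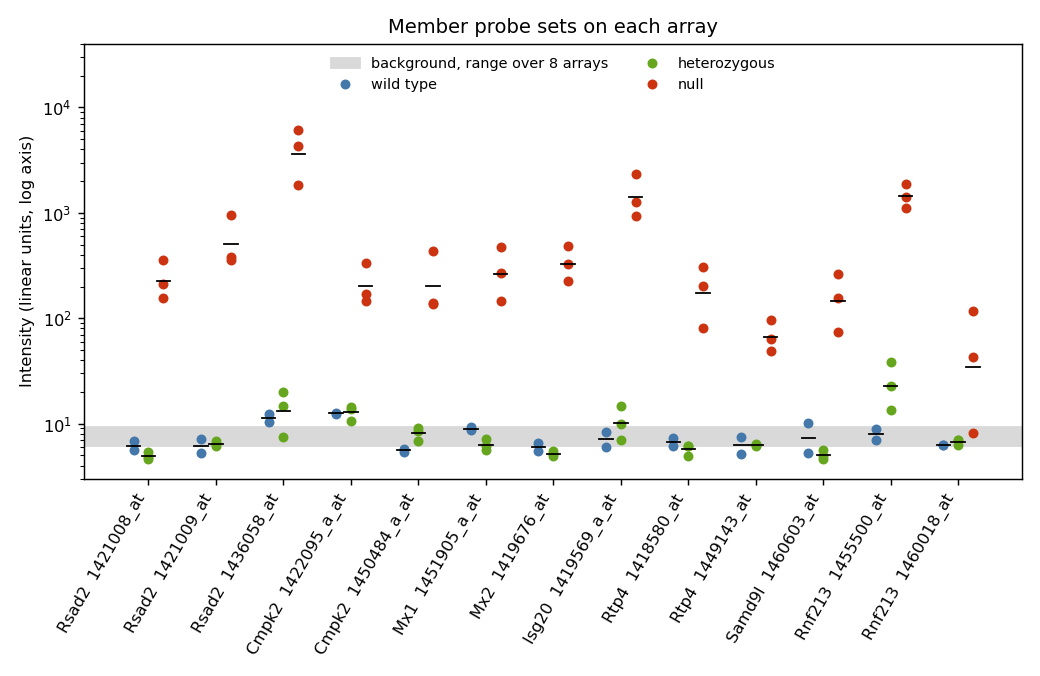
Intensity of each member probe set on each array (log axis, linear units as deposited), with a point per mouse, the mean of the log2 values as a bar, and the range of background over the 8 arrays as a grey band. Every KO point lies above every control point of its probe set, and only the second Rnf213 probe set has a KO point inside the band.

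Rsad2, the viperin gene, held the largest difference among these genes. Its brightest probe set, 1436058_at, read 10.3 and 12.3 on the WT arrays, 20.2, 14.8 and 7.49 on the HT arrays, and 4327, 6054 and 1856 on the KO arrays. The groups were far apart, and the lowest KO value was 92.1 times the highest control value. The log2 difference from the controls was 8.21 ± 0.44 (SE, 296-fold; limma, adjusted p = 0.00019), the second largest of the 45037. The difference was 8.34 ± 0.58 from WT (adjusted p = 0.00447) and 8.13 ± 0.52 from HT (adjusted p = 0.00268), and these comparisons share the KO arrays. The group means were 3.497 ± 0.18 in WT (SD, n = 2), 3.71 ± 0.73 in HT (SD, n = 3) and 11.83 ± 0.88 in KO (SD, n = 3) on the log2 scale.

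The other Rsad2 probe sets moved the same way. Probe set 1421009_at read 5.31 and 7.13 in WT, 6.38, 6.91 and 6.13 in HT, and 356, 949 and 384 in KO, which is 6.32 ± 0.32 above the controls (adjusted p = 0.000166). It was above background on 1 of the 5 controls, and the rise was 71.98-fold with each control array at the higher of its background and the measured value. Probe set 1421008_at read 5.66 and 6.80 in WT, 4.64, 4.86 and 5.38 in HT, and 356, 212 and 156 in KO. All 5 of its control values were at or below background, so its rise of 5.39 ± 0.27 corresponds to at least 32.5-fold (adjusted p = 0.000166). All folds and bounds below use the same floor, while log2 differences are those of the values as deposited and, where controls lay below background, rest on unmeasured levels. The order of the KO arrays differed between probe sets of the gene: KO array 2 was highest for 2 of them and KO array 1 for 1421008_at.

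Cmpk2, which shares the Rsad2 locus, also rose on both of its probe sets. The brighter, 1422095_a_at, read 12.4 and 12.6 in WT, 13.8, 14.3 and 10.6 in HT, and 337, 146.5 and 170 in KO, and was above background on every array. This is 4.004 ± 0.27 above the controls (16.04-fold; adjusted p = 0.000619), 4.02 ± 0.36 above WT (adjusted p = 0.0107) and 3.99 ± 0.32 above HT (adjusted p = 0.00559), and without WT array 2 the adjusted p against WT was 0.0513. Probe set 1450484_a_at read 5.34 and 5.81 in WT, 6.91, 8.46 and 9.05 in HT, and 141, 430 and 137 in KO. It was 4.86 ± 0.40 above the controls (25.65-fold, 3 of 5 controls above background; adjusted p = 0.00202), with a different KO array highest than on the first probe set. The measured genes on either side of the Rsad2 and Cmpk2 pair, 4930549C15Rik and 4933409F18Rik, differed by 0.23 ± 0.22 (adjusted p = 0.708) and 0.09 ± 0.14 (adjusted p = 0.819). The second was below background on all arrays, so no change could be measured for it. The first read 5.96 to 9.28 on the controls and 7.02 to 12.2 on the KO arrays, close to background.

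The dynamin-like GTPase genes, each with 1 probe set, rose together. Mx1 (1451905_a_at) read 9.25 and 8.62 in WT, 5.68, 7.11 and 6.13 in HT, and 145, 477 and 267 in KO. It was 5.19 ± 0.37 above the controls (35.3-fold, 3 of 5 controls above background; adjusted p = 0.000849), 4.89 ± 0.45 above WT (adjusted p = 0.0121) and 5.39 ± 0.40 above HT (adjusted p = 0.00484). Mx2 (1419676_at) read 6.50 and 5.46 in WT, 5.49, 5.13 and 4.89 in HT, and 482, 330 and 225 in KO, with all 5 controls at or below background. It was 5.91 ± 0.24 above the controls (at least 47.1-fold; adjusted p = 5.59e-05), at least 43.3-fold above WT (5.79 ± 0.31, adjusted p = 0.00144) and at least 49.8-fold above HT (5.99 ± 0.27, adjusted p = 0.000671). The Mx1 call against WT was lost without WT array 2, HT array 1 or HT array 3 (adjusted p up to 0.0572). KO array 1 was the lowest of the KO arrays for Mx1 and the highest for Mx2.

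Isg20, the exonuclease gene, had the fourth largest difference from the controls of all probe sets tested. Its probe set 1419569_a_at read 8.34 and 6.01 in WT, 14.9, 9.86 and 6.92 in HT, and 2346, 1259 and 929 in KO. The lowest KO value was 62.6 times the highest control value, and the HT values overlapped the WT values. The difference was 7.32 ± 0.38 from the controls (151-fold, 4 of 5 controls above background; adjusted p = 0.000166), 7.63 ± 0.47 from WT (170-fold, 1 of 2 WT arrays above background; adjusted p = 0.00257) and 7.12 ± 0.42 from HT (139-fold; adjusted p = 0.00193).

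Rtp4 rose on both probe sets. On the brighter, 1418580_at, the values were 7.28 and 6.17 in WT, 6.20, 4.94 and 6.10 in HT, and 204, 306 and 81.1 in KO, a difference of 4.82 ± 0.39 from the controls (24.4-fold; adjusted p = 0.00188). On 1449143_at they were 5.16 and 7.48 in WT, 6.22, 6.39 and 6.11 in HT, and 95.2, 62.9 and 48.4 in KO, a difference of 3.41 ± 0.23 (9.465-fold; adjusted p = 0.000619). Each was above background on 1 of the 5 controls, and KO array 3 gave the lowest KO value on both. For 1418580_at the call against HT was lost without any 1 of the HT arrays (adjusted p up to 0.0727), and that against WT in 6 of 8 fits with an array left out (up to 0.0839).

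Samd9l (1460603_at) read 5.24 and 10.1 in WT, 4.67, 5.60 and 4.89 in HT, and 73.4, 157 and 261 in KO. The WT arrays lay further apart than the HT arrays, and KO array 3 was the highest, the reverse of its place for most members. Samd9l was 4.63 ± 0.42 above the controls (19.8-fold, 1 of 5 controls above background; adjusted p = 0.00344), 4.31 ± 0.53 above WT (adjusted p = 0.0373) and at least 21.8-fold above HT (4.84 ± 0.47, adjusted p = 0.0133). The call against HT was lost without any 1 of the HT arrays (adjusted p up to 0.0827), and that against WT in 6 of 8 fits with an array left out (up to 0.116), while the call against all controls held in all 8.

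Rnf213, the ubiquitin ligase gene, was the member whose probe sets disagreed. The brighter, 1455500_at, read 7.04 and 8.95 in WT, 22.8, 38.6 and 13.5 in HT, and 1402, 1877 and 1118 in KO, so that the 3 genotypes did not overlap. It was 7.496 ± 0.44 above WT (179.9-fold, 1 of 2 WT arrays above background; adjusted p = 0.00257), 5.97 ± 0.40 above HT (62.8-fold; adjusted p = 0.00285) and 6.58 ± 0.55 above the controls (95.7-fold, 4 of 5 controls above background; adjusted p = 0.00211). The other, 1460018_at, read 6.32 and 6.32 in WT, 6.32, 7.04 and 6.93 in HT, and 116, 43.2 and 8.08 in KO, where KO array 3 was below its background of 8.22. Its difference from the controls, 2.38 ± 0.73, did not pass the threshold (adjusted p = 0.277), and without KO array 3 it passed (adjusted p = 0.00861).

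Against each control genotype alone, 12 of 13 probe sets rose, and the exception was Rnf213 1460018_at in both. Over all probe sets, 0.22% were called higher against WT and 0.262% against HT. The median member differences were 5.18 from WT and 5.39 from HT, beside 0.01 and 0.07 for all probe sets. The count against WT moved with the arrays in the fit: it was 7 without WT array 2, 8 without HT array 1 and 8 without HT array 3, which share the estimate of spread, and in a model of the WT and KO arrays alone it was 1 (Rnf213 1455500_at, adjusted p = 0.0370), although all 13 differences stayed positive.

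**Figure D2:**
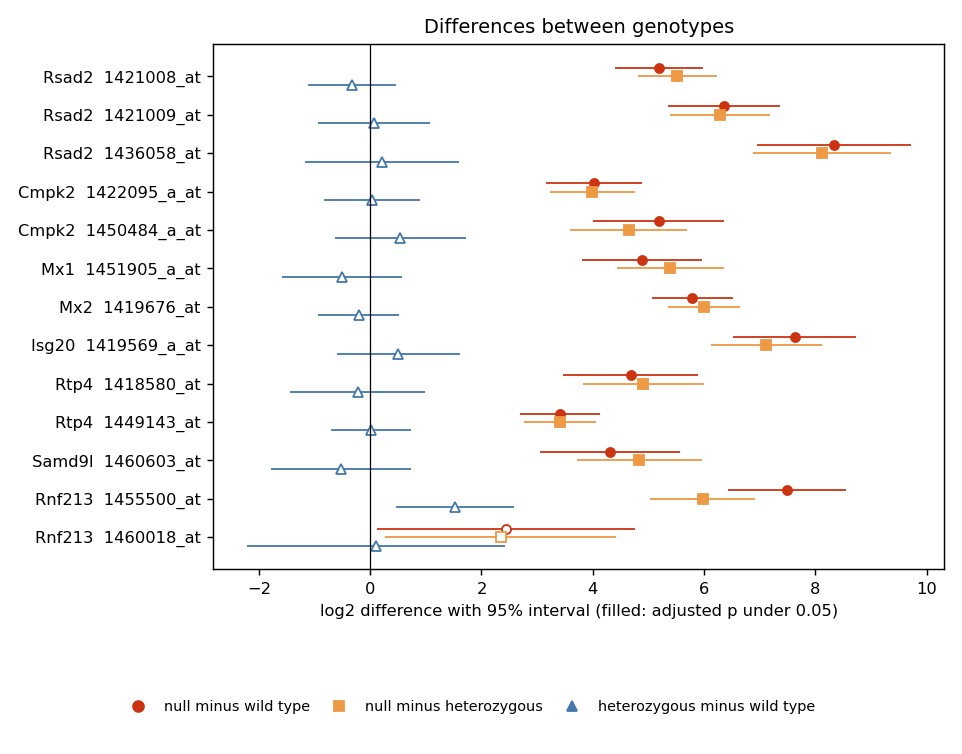
Log2 difference of each member probe set in the 3-group model, with its 95% interval; filled symbols passed an adjusted p of 0.05. Differences of KO from WT and from HT lie between 2.35 and 8.34, and those of HT from WT lie between -0.53 and 1.52.

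Carrying 1 null copy of ADAR1 gave no called change in these genes. Between HT and WT, limma called 0 of the 13 probe sets, against 0.00222% of all probe sets called in either direction, and 1 had an unadjusted p under 0.05, as had 5.37% of all probe sets. The median difference was 0.03, beside -0.06 for all probe sets, with 8 differences above 0 and 5 below. That 1 was Rnf213 1455500_at, 1.52 ± 0.44 higher in HT (95% interval 0.47 to 2.58, above background on all 3 HT and 1 of 2 WT arrays), with an unadjusted p of 0.0116 and an adjusted p of 0.891 in limma. All HT arrays were above all WT arrays for 2 of 13 probe sets, this one and Cmpk2 1450484_a_at, against 11.4% of all probe sets, and below all WT arrays for 2 of 13, Mx1 and Rsad2 1421008_at, against 17.8%. Rsad2 1421008_at was at or below background on all of these arrays. For the brightest Rsad2 probe set the interval was -1.18 to 1.60 and for Isg20 -0.60 to 1.61, and for Mx2, at or below background on all WT and HT arrays, no change could be measured. The HT-minus-WT and KO-minus-WT comparisons share the WT arrays. By their Xist and Eif2s3y values, both WT arrays had a female pattern and HT arrays 1 and 3 a male one. Sex and genotype therefore cannot be fully told apart between HT and WT.

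The members did not share one order over the 3 KO mice. KO array 3 held the lowest KO value for 9 of 13 probe sets, KO array 1 for 3 and KO array 2 for 1, whereas the highest value was on KO array 1 for 6, on KO array 2 for 6 and on KO array 3 for 1. Relative to the mean of the controls, Rsad2 1436058_at was higher by 8.46, 8.94 and 7.23 on KO arrays 1, 2 and 3 (log2). Rtp4 1418580_at stood 5.07, 5.65 and 3.74 above its controls on the same arrays, so that the gap between the rises of Rsad2 and Rtp4 was 3.39 ± 0.10 (SD over 3 KO arrays). Samd9l stood 3.65, 4.75 and 5.48 above its controls, and its gap to Rsad2 was 3.58 ± 1.61 (SD). Cmpk2 1422095_a_at, beside Rsad2 in the genome, stood 4.74, 3.53 and 3.75 above its controls, a gap of 4.21 ± 1.05 (SD). The gap of Rsad2 to Rtp4 had the smallest SD of all member pairs. That to Samd9l had the largest SD among the pairs with Rsad2, so these are extremes picked from many pairs. The gaps are between the brightest probe sets, and the order changed with the probe set. Cmpk2 1450484_a_at read 141, 430 and 137 on KO arrays 1, 2 and 3, the same order as Rsad2 1436058_at. Rtp4 1449143_at read 95.2, 62.9 and 48.4, a different order from Rsad2 1436058_at.

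**Figure D3:**
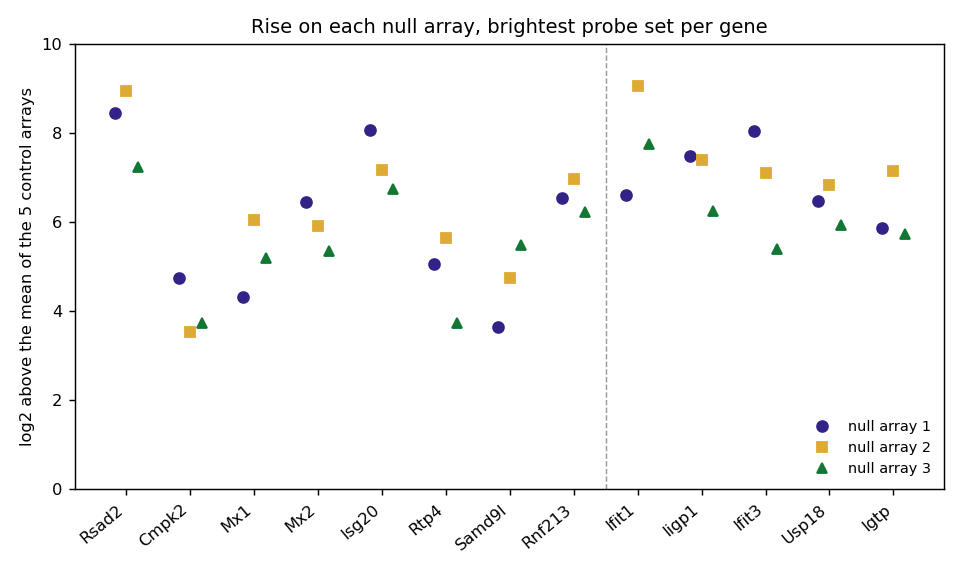
Rise of the brightest probe set of each gene on each KO array, as log2 above the mean of the 5 controls; the 8 member genes are left of the dashed line and the 5 other genes most like Rsad2 right of it. KO array 3 is the lowest point for Rsad2, Mx2, Isg20, Rtp4 and Rnf213, and the highest for Samd9l, at 5.48.

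The genes whose pattern was nearest to that of Rsad2 were ranked by the root mean square difference from 1436058_at over the 8 arrays, after log2 values were centred on the controls, for the brightest probe set of 18192 other genes. Isg20 was the nearest of all (0.708). The 5 nearest genes outside the members were Ifit1 (0.780), which encodes a protein that binds viral RNA ends, the immunity-related GTPase gene Iigp1 (0.843), Ifit3 (0.980), Usp18 (1.19), which encodes the protease that removes ISG15, and the immunity-related GTPase gene Igtp (1.29). Among the members, Rnf213 ranked 5 (1.19), Mx2 11 (1.49), Mx1 23 (1.98), Rtp4 27 (2.13), Samd9l 38 (2.39) and Cmpk2 49 (2.64). This measure follows the size of the rise on the KO arrays, which all these genes share.

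Other genes of the pathway rose with the members. Their lists follow known roles but were drawn up with earlier results of these data known, so the counts are descriptive. Of 24 measured genes for other antiviral effectors, 17 rose against the controls and none fell (median 4.498), and 23 had an unadjusted p under 0.05 and were higher, as were 4.86% of all probe sets. The largest differences in it were those of Ifit1 (7.81 ± 0.46, adjusted p = 0.000326), Ifit3 (6.85 ± 0.53, adjusted p = 0.00148), the tethering factor gene Bst2 (6.38 ± 0.46, adjusted p = 0.00091) and the oligoadenylate synthetase gene Oas1a (5.96 ± 0.63, adjusted p = 0.00656). Of 9 double-stranded RNA sensors and adaptors, 6 rose and none fell (median 4.197). These included Ifih1, which encodes the sensor MDA5 (5.46 ± 0.51, adjusted p = 0.00363), the helicase genes Ddx60 (4.75 ± 0.32, adjusted p = 0.000619) and Dhx58 (at least 16.2-fold, adjusted p = 0.000548), and Zbp1, which encodes a sensor of Z-form nucleic acid (at least 17.1-fold, adjusted p = 0.0032).

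Of 11 measured interferon signalling genes, 5 rose and none fell, with a median of 0.41. At an unadjusted p under 0.05 in limma, 6 were higher and 1 lower, beside 4.86% and 6.66% of all probe sets. The lower one was Irf3, which is outside the 4 largest differences (-1.42 ± 0.29, adjusted p = 0.105). It read 86.1 to 179 on the controls and 34.5 to 60.3 on the KO arrays, without overlap, as for 4.3% of all probe sets. The largest differences were in Usp18 (6.42 ± 0.24, adjusted p = 5.08e-05), in the transcription factor genes Irf7 (5.51 ± 0.37, adjusted p = 0.000619) and Irf1 (3.58 ± 0.39, adjusted p = 0.00729), and in Stat2 (3.94 ± 0.20, adjusted p = 0.000166). The shares called in these lists stand beside the 0.329% of all probe sets called higher.

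**Figure D4:**
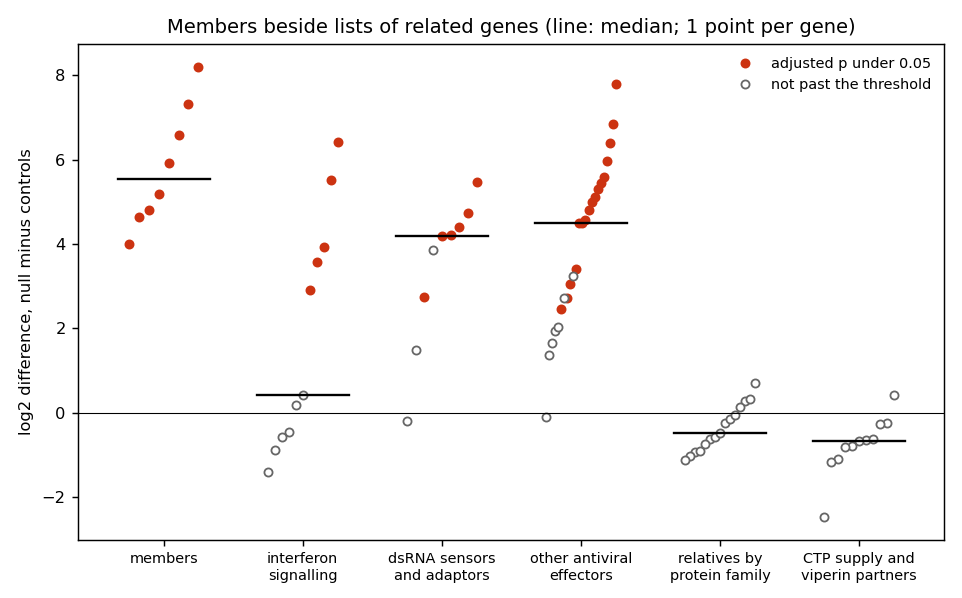
Log2 difference of KO from controls for the brightest probe set of each gene, with the median of each list as a bar; filled points passed an adjusted p of 0.05. All 8 member genes passed (4.004 to 8.21, median 5.55), while none of the protein relatives or of the CTP supply and viperin partner genes did.

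No relative of the members by protein family passed the test. Of 15 measured, limma called none in either direction (median -0.49), and 2 had an unadjusted p under 0.05, both lower, as were 6.66% of all probe sets. The largest difference among them was that of the dynamin gene Dnm2 (-1.12 ± 0.60, adjusted p = 0.517), followed by Dnm1l (-1.04 ± 0.35, adjusted p = 0.328), the radical SAM lipoyl synthase gene Lias (-0.93 ± 0.40, adjusted p = 0.429) and Opa1 (-0.91 ± 0.80, adjusted p = 0.678). Cmpk1, the cytosolic counterpart of Cmpk2, differed by -0.26 ± 0.29 (adjusted p = 0.750), Isg20l2 by -0.15 ± 0.37 (adjusted p = 0.890) and Rtp3 by 0.13 ± 0.16 (adjusted p = 0.779), and these were singled out after their values were seen. Rtp3 was below background on all KO arrays and on some controls, so its difference rests on unmeasured levels.

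Genes that supply CTP, the substrate of viperin, or encode reported partners of viperin were also without a call in limma: 0 of 11, with a median of -0.67 and 5 of 11 lower at an unadjusted p under 0.05, beside the 6.66% of all probe sets. The uridine-cytidine kinase gene Uck2 read 263.5 to 1177 on the controls and 49.95 to 250.5 on the KO arrays, a difference of -2.48 ± 0.67 (adjusted p = 0.217). Every KO value was below every control value, as for 4.3% of all probe sets, and the difference did not pass the threshold. Hadhb, for a subunit of the mitochondrial trifunctional protein, differed by -1.18 ± 0.42 (adjusted p = 0.352), Uck1 by -1.10 ± 0.40 (adjusted p = 0.358) and the nucleoside diphosphate kinase gene Nme2 by -0.81 ± 0.20 (adjusted p = 0.164). For Nme2 and for the CTP synthase gene Ctps, which is outside the 4 largest differences, every KO value also lay below every control value. Ctps read 463 to 628 on the controls and 231 to 370 on the KO arrays (-0.80 ± 0.19, adjusted p = 0.164).

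The rise of the members was set beside the genes next to them in the genome, taken as the nearest measured gene on either side in the RefSeq order. Of 13 such genes, 1 rose and none fell, and the median difference from the controls was 0.21. The 1 that rose was Gm20559, a long non-coding RNA gene in RefSeq that lies before Samd9l. Its probe set 1455581_x_at read 8.11 and 10.7 in WT, 10.1, 8.75 and 9.44 in HT, and 168, 417 and 113 in KO, a difference of 4.41 ± 0.38 (adjusted p = 0.00236), and its other probe set, 1436172_at, differed by 4.96 ± 0.29 (adjusted p = 0.000313). Fam3b, which lies between Mx1 and Mx2, read 5.52 and 6.49 in WT, 7.11, 7.397 and 7.002 in HT, and 241, 120 and 20.8 in KO. The Fam3b groups did not overlap, and its difference of 3.66 ± 0.68 did not pass the threshold (adjusted p = 0.0818). The other 11 neighbours differed by -0.26 to 0.46. Among them, 4933409F18Rik and Hepacam2 were below background on all arrays, and Bace2, Masp1, Sst and Slc26a11 on all KO arrays. For such genes a difference near 0 does not show that the transcript was unchanged.

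**Figure D5:**
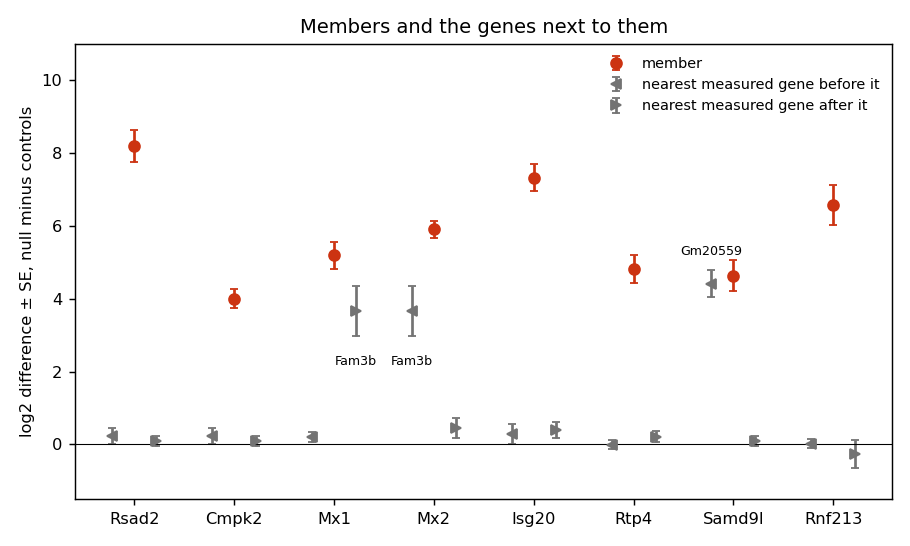
Log2 difference of KO from controls (± SE) for the brightest probe set of each member and for the nearest measured gene before and after it in the RefSeq order. Gm20559 (4.41) and Fam3b (3.66, drawn at both Mx genes) stand apart from the other neighbours, which lie near 0. Several of these others were below background on all KO arrays.

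Summed markers of some other cell types also differed between the KO and control arrays. Limma called none of the macrophage, erythroid, plasmacytoid dendritic cell, lymphocyte or granulocyte markers against the controls. It called 1 hepatocyte marker lower, Afp, beside 114 of 45037 probe sets called lower. The summed intensity of 10 macrophage markers was 144.5 to 678.5 on the controls and 63.4 to 78.1 on the KO arrays, with Adgre1, Vsig4 and Cd5l at background on all arrays. On WT array 2, which had the highest sum, C1qb alone read 433.9. At an unadjusted p under 0.05 in limma, C1qb, C1qc, Csf1r and Mrc1 were lower and Cd5l higher, beside 6.66% and 4.86% of all probe sets. The sum of 9 hepatocyte and hepatoblast markers was 212.5 to 1114 on the controls and 73.9 to 103 on the KO arrays, and Afp, which encodes alpha-fetoprotein, fell by 5.11 ± 0.79 on the log2 scale (adjusted p = 0.0403). Afp read 22.9, 4.79 and 6.75 on KO arrays 1, 2 and 3. The values on KO arrays 2 and 3 were below background, so the size of the fall rests on unmeasured levels. The sum of 7 erythroid markers was 906 to 1634 on the controls and 708 to 811.5 on the KO arrays. Ermap read 409 to 739 on the controls and 35.6 to 164 on the KO arrays, and without it the sum of 6 was 497 to 597 in WT, 845 to 895 in HT and 647 to 681 in KO. The KO sums thus lay below the WT sums only with Ermap included, and below the HT sums with or without it. Epor, the erythropoietin receptor gene, read higher in KO than in WT without passing the threshold (0.88 ± 0.18, adjusted p = 0.2045).

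For plasmacytoid dendritic cells, which are known for making interferon, the sum of 8 markers was 130 to 265 on the controls and 373 to 587.5 on the KO arrays. The defining marker Siglech read 6.46 to 10.1 on the controls and 6.32 to 11.7 on the KO arrays, and the higher sum came with Tcf4, at 28.5 to 132 on the controls and 256 to 517 on the KO arrays (2.36 ± 0.54, adjusted p = 0.148). Klk1 differed the other way, at 32.98 to 96.8 on the controls and 14.2 to 43.8 on the KO arrays (-1.15 ± 0.49, adjusted p = 0.428), and at an unadjusted p under 0.05 the list had 2 genes higher and 1 lower. The sum of 6 lymphocyte markers was 37.95 to 66.6 on the controls and 35.9 to 66.7 on the KO arrays, with Cd3g and Ncr1 at background on all arrays, and that of 8 granulocyte markers was 141 to 347 and 74.5 to 214. The part of these cell types in the member results was not tested.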

How the data were processed

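Haematopoietic stem cells of 8 mice were profiled on Affymetrix arrays after biotin labelling with an amplification kit, per the labels. The authors deposited linear intensity values per probe set, and RMA is named in the submitters' processing notes; which program ran it is not given in the sources used. The number of per-sample columns not used was 0. Log2 was taken of the deposited values with no further normalization.

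Of 45101 probe sets, 64 controls were left out and 45037 tested. The platform annotation named 1 gene for 34945, several for 932 and none for 9160, and 34741 symbols were matched to RefSeq by gene number. No probe set naming several genes named a member (0). A 3-group model in limma 3.58.1 (R 4.3.3, lmFit and eBayes, 5 residual degrees of freedom) gave KO minus WT, KO minus HT and HT minus WT, and a 2-group model (6 residual degrees of freedom) gave KO minus controls. Tests were two-sided, with Benjamini-Hochberg adjustment over all tested probe sets and a threshold of 0.05. The code of the fit was tried on simulated data with independent normal noise and added KO shifts. That trial did not reproduce array effects or the background floor, so it does not bear on the calls. Each mouse is 1 replicate, so differences were judged against the spread between mice within groups. That spread was pooled over all arrays in the model and moderated by eBayes with that of all tested probe sets. Replicate numbers follow the order of deposit.

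All member probe sets are named. Other genes stand for themselves by their brightest probe set (highest mean log2 over the arrays), and the 4 with the largest difference from the controls are named from each pathway list, and the 5 nearest to Rsad2. The members and lists were chosen with earlier results of these data known, and the neighbouring genes were added after the members' values were seen. Promoter sequences are from RefSeq. No genome and no probe positions were used here. Alternatives were 8 other settings and leaving out each of the 8 arrays in turn.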

Additional observations from a re-analysis of the deposited data

How the results depend on the processing

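All 13 member differences of KO from WT, from HT and from the controls stayed above 0 under every alternative run. Against the controls, the number of probe sets that rose was 12 in every other setting and 12 to 13 with an array left out. Against HT it was 9 to 12 and 9 to 13. Against WT it was 7 with a pseudocount of 16, 1 in a model of the WT and KO arrays alone and 7 to 12 with an array left out, 7 without WT array 2. Without a WT array, the lone WT sample is assumed to vary like the other groups. The model with WT and KO arrays alone has fewer residual degrees of freedom and its own estimate of spread. The cause of the lower count was not tested for this model or for the pseudocount. With an array left out, Rtp4 1418580_at reached an adjusted p of up to 0.0839 against WT, Samd9l up to 0.116, Cmpk2 1450484_a_at up to 0.0579, Mx1 up to 0.0572 and Cmpk2 1422095_a_at 0.0513. Against HT, Rtp4 1418580_at, Cmpk2 1450484_a_at and Samd9l lost the call without any 1 of the HT arrays (up to 0.0727, 0.0774 and 0.0827). Between HT and WT no probe set was called under any alternative, and 13 of 208 values changed sign. The sex pattern was male on HT arrays 1 and 3 and KO array 1, and female on the other arrays, including both WT arrays. With this pattern as a covariate, Cmpk2 1422095_a_at became -0.25, Mx1 0.014, Rtp4 1449143_at -0.24, Samd9l 0.036 and Rnf213 1460018_at -0.75. With quantile normalization Cmpk2 1422095_a_at became -0.072, and with the pseudocount Rtp4 1449143_at became -0.0031. With an array left out, Cmpk2 1422095_a_at ranged from -0.049 to 0.17, Rtp4 1449143_at from -0.26 to 0.27, Rsad2 1421009_at from -0.14 to 0.28 and Rsad2 1436058_at from -0.10 to 0.61. The cause of these changes was not tested. No paired analysis was possible because the replicate numbers follow the order of deposit and mark different mice. Folds against controls at background are limited by signal over background.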

Other observations

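On KO array 1, Rsad2 1421008_at and 1421009_at held the identical deposited value, 355.6, although they differed on the other 7 arrays. Rnf213 1460018_at read the same value, 6.32, on both WT arrays and on HT array 1. The cause of these ties was not tested.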
